A study of Mus musculus with 10 samples.

Results

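The libraries described here are the 5 wild-type (WT) members of a series of 10, sequenced from whole interscapular brown adipose tissue (iBAT) of male mice after a long high-fat diet (HFD). They were taken by the genotype label Wild-Type alone, so no measured value chose them. The remaining 5 libraries came from mice with a whole-body constitutive knockout of Axl (Axl KO) and are not compared here. By the series' design text and labels, all mice were fed HFD ad libitum for 24 weeks from an age of 6 to 8 weeks and kept at standard room temperature. A slightly longer diet and an older age at its start are given in the study's methods and legends. The study describes the WT mice as littermates from the breeding of Axl heterozygous animals, so they carried no Axl allele that had been targeted. The labels name no strain. Each library is 1 whole depot of 1 mouse, and the values below describe the depot in this 1 state.

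Brown fat burns lipid and glucose to make heat. Noradrenaline from sympathetic nerves acts on beta-adrenergic receptors and cAMP, lipid droplets release fatty acids, and UCP1 in the inner mitochondrial membrane lets protons return without making ATP. The same cells also make fatty acids and triglyceride anew, and in obese mice kept without cold the depot is known to take on more lipid and to resemble white fat. A whole depot further holds vessels, nerves, fibroblasts, immune cells and whatever lies next to it on dissection. In such bulk samples fewer cells of a type and less RNA per cell cannot be told apart.

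Counts per library ranged from 5952427 to 9580215. Values are given as CPM, the counts of a gene in every 1000000 of the file total, in the order of WT replicates 1 to 5. A single count was worth 0.104 to 0.168 CPM. Between 13579 and 13939 genes exceeded 1 CPM per library, and protein-coding genes held 94.5% to 95.9% of counts. No pair of libraries differed by as little as sampling noise. The mean chi-square per gene of a pair, near 1 for sampling noise alone, was 8.80 to 29.2. Pearson's r was 0.982 to 0.991 between pairs across 13790 genes that are not independent replicates. The spread of a gene is given as its highest library divided by its lowest. Of 7941 genes with a mean of at least 100 counts, 215 (2.71%) differed at least 2-fold between their highest and lowest library, and the median gene differed 1.22-fold. The members of each gene list below are read against that 2.71%.

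Few genes held most of the counts. The highest gene held 5.58% to 6.99% of a library, the upper 10 held 15.7% to 18.6%, and 298, 308, 356, 298 and 335 genes were enough for 50% of counts. The genes with the most counts, described here as 19 of the upper 20, fell into a few known functions: mitochondrial energy conversion (mt-Co1, mt-Cytb, mt-Nd1, mt-Nd5, Atp5b, Atp5a1, Ogdh and Acadvl), fatty acid synthesis (Scd1 and Fasn), lipid handling (Gpd1, Pck1, Fabp4 and Cd36) and heat production (Ucp1). The others were Car3, the carbonic anhydrase of adipocytes and muscle, the noncoding RNAs Rn7sk and Malat1, and Ttn, the giant spring protein of muscle sarcomeres. Counts grow with transcript length, so levels of different genes are compared only per kilobase of merged exons, as a share of their sum over all genes times the same constant as CPM. Such a value is called the per-length level.

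**Figure D1:**
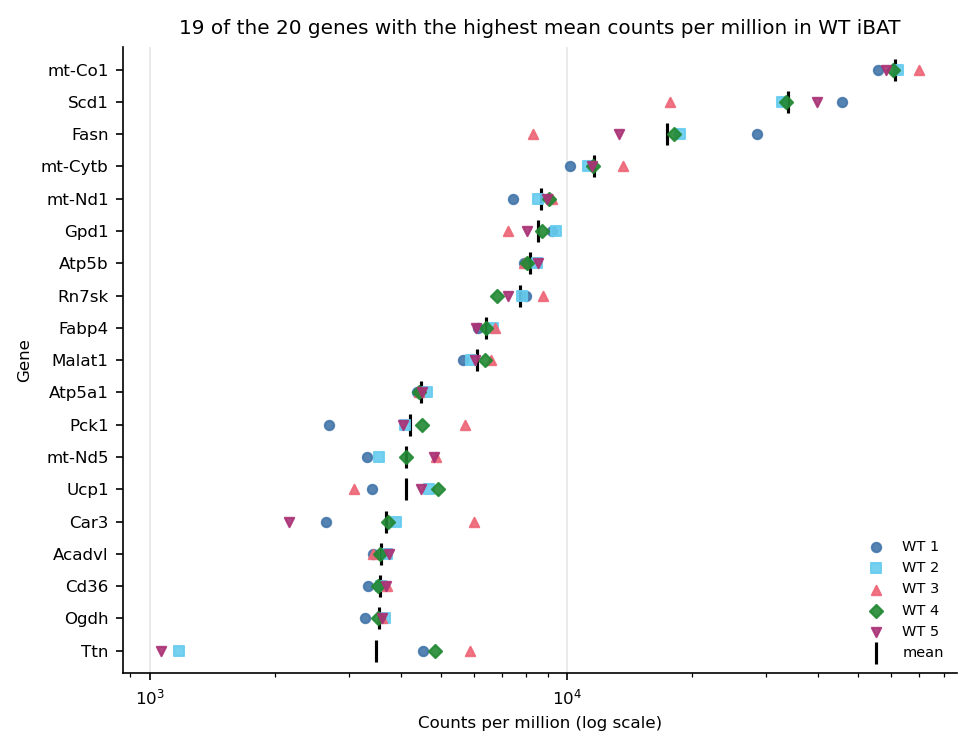
CPM (log axis) of 19 of the 20 genes with the highest mean, with 1 symbol per WT library and a bar for the mean of 5. Most genes lie within a narrow range, while Ttn separates replicates 2 and 5 at 1173 and 1066 CPM from the other three at 4511 to 5854 CPM, and replicate 3 is lowest for Scd1, Fasn and Ucp1.

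Transcripts that the mitochondrial genome encodes made up 9.27% ± 0.839 (SD, n = 5) of counts, the largest mean share of the 31 gene classes, and 15.1% ± 2.03 per length. In replicate 1 the class of fatty acid synthesis held more, 8.97% against 8.25%. mt-Co1, the catalytic subunit of complex IV, had 55837, 62293, 69917, 60599 and 58149.9 CPM. Replicate 3 was highest and replicate 1 lowest, and by its per-length level of 88628 ± 11579.8 (SD, n = 5) mt-Co1 stood first of all genes. mt-Cytb, the cytochrome b of complex III, had 10192, 11216, 13618, 11571 and 11465 CPM. mt-Nd1, a subunit of complex I, had 7447, 8540.1, 9238, 9068 and 8967 CPM. For both, replicate 1 was again the lowest and replicate 3 the highest.

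The 13 mitochondrial genes were read very unevenly along 1 stretch of that genome. mt-Co3 (GRCm38, chrM:8607-9390), a subunit of complex IV, had 12.9, 569, 155, 80.8 and 61.9 CPM, a 44.1-fold range. mt-Atp6, of ATP synthase, had 7.12, 67.6, 40.3, 5.88 and 30.7 CPM. mt-Co2, of complex IV, had 40.8, 31.5, 79.8, 32.1 and 65.2 CPM. The first 2 of these were highest in replicate 2 and mt-Co2 in replicate 3. mt-Nd4l had 1 count in all 5 libraries together and mt-Nd3 averaged 1.79 CPM. Together with mt-Atp8 these 5 are all the protein genes that lie between mt-Co1 and mt-Nd4, from base 7013 on, and mt-Nd4 averaged 3177 CPM. In the GENCODE vM21 transcripts, 98.1% to 100% of the 31-base words of these 5 genes occurred also in the transcript of another gene. For mt-Nd1, mt-Cytb and mt-Nd5 that share was 0%, 6.55% and 16.8%, for mt-Nd4 it was 62.8%, and for mt-Co1, with the most counts, 63.9%. The copies that share the most words with these 5 are gene models that lie side by side on chromosome 1 of GRCm38, and they have no row in the tables used here. mt-Atp8, with 7.47% shared, mostly with mt-Atp6 which overlaps it, averaged 6.73 CPM. How reads that match several copies were counted is not given in the sources used here. Levels and spread of these genes, and in part those of mt-Co1 and mt-Nd4, are therefore uncertain, and with them the class sum. Of 10 mitochondrial genes with a mean of at least 100 counts 4 were past 2-fold, mt-Co2, mt-Atp6, mt-Co3 and mt-Nd6, a complex I subunit with 7.36% shared words. mt-Co2 and mt-Nd6 were picked out after their values were seen.

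Nuclear genes of oxidative phosphorylation varied little. The 87 genes of complexes I to IV and ATP synthase held 5.04%, 5.27%, 5.15%, 5.09% and 5.15% of counts, a mean of 5.14% ± 0.0842 (SD, n = 5). None of 81 members with a mean of at least 100 counts differed 2-fold between libraries, and their median was 1.09-fold. Atp5b, the catalytic beta subunit of ATP synthase, had 7901, 8464, 7894, 8050.3 and 8554 CPM. Ndufs1, the largest subunit of complex I, had 1075, 1125, 1070.4, 1072 and 1093 CPM. Atp5o, of the stalk of ATP synthase, had 709.8, 709, 706, 680.1 and 683 CPM. The libraries of each of these genes lay within 1.08-fold, 1.05-fold and 1.04-fold. By complex, the shares were 1.25% ± 0.0192 (SD, n = 5) for complex I, 0.532% ± 0.0137 for complex II, 0.686% ± 0.0132 for complex III, 0.973% ± 0.0174 for complex IV and 1.70% ± 0.0374 for ATP synthase.

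Of the subunits of complex IV with tissue-specific forms, 3 pairs were compared per length. Cox8b had a per-length level of 6366 ± 732 and its general counterpart Cox8a one of 1768 ± 261. Cox7a1 had a per-length level of 2301 ± 309.6 and Cox7a2 one of 981 ± 126. For Cox6a the order was the reverse, with a per-length level of 41.2 ± 24.9 for the muscle form Cox6a2 and 2878 ± 306 for the general form Cox6a1. Cox6a2 had 18.4, 4.59, 18.4, 18.1 and 4.13 CPM, low in replicates 2 and 5. Cox6a2, Cox7a1, Cox7a2 and Cox8a were picked out after their values were seen. In CPM, Cox8b was nearly flat at 1033, 1045, 1026, 1029 and 994, and Cox7a1 had 529, 565, 548, 533 and 575.

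The pathways that feed the respiratory chain varied little in their sums. Genes of the citric acid cycle and of pyruvate entry held 3.34% ± 0.0989 (SD, n = 5) of counts, with 1 of 26 tested members past 2-fold. Genes of fatty acid oxidation held 3.40% ± 0.112 (SD, n = 5), with 1 of 35. Acadvl, which starts the oxidation of very long chain fatty acids, had 3434, 3715, 3433, 3575 and 3757 CPM. Its highest and lowest libraries lay 1.09-fold apart. Mitochondrial ribosomal proteins, none of 77 past 2-fold, had the smallest coefficient of variation of the 31 classes (0.861%), with a summed level of 4057, 4121, 4127, 4140.2 and 4079 CPM. Together with the mitochondrial carriers and branched-chain amino acid breakdown, the mitochondrial classes held 21.0% to 23.9% of counts.

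**Figure D2:**
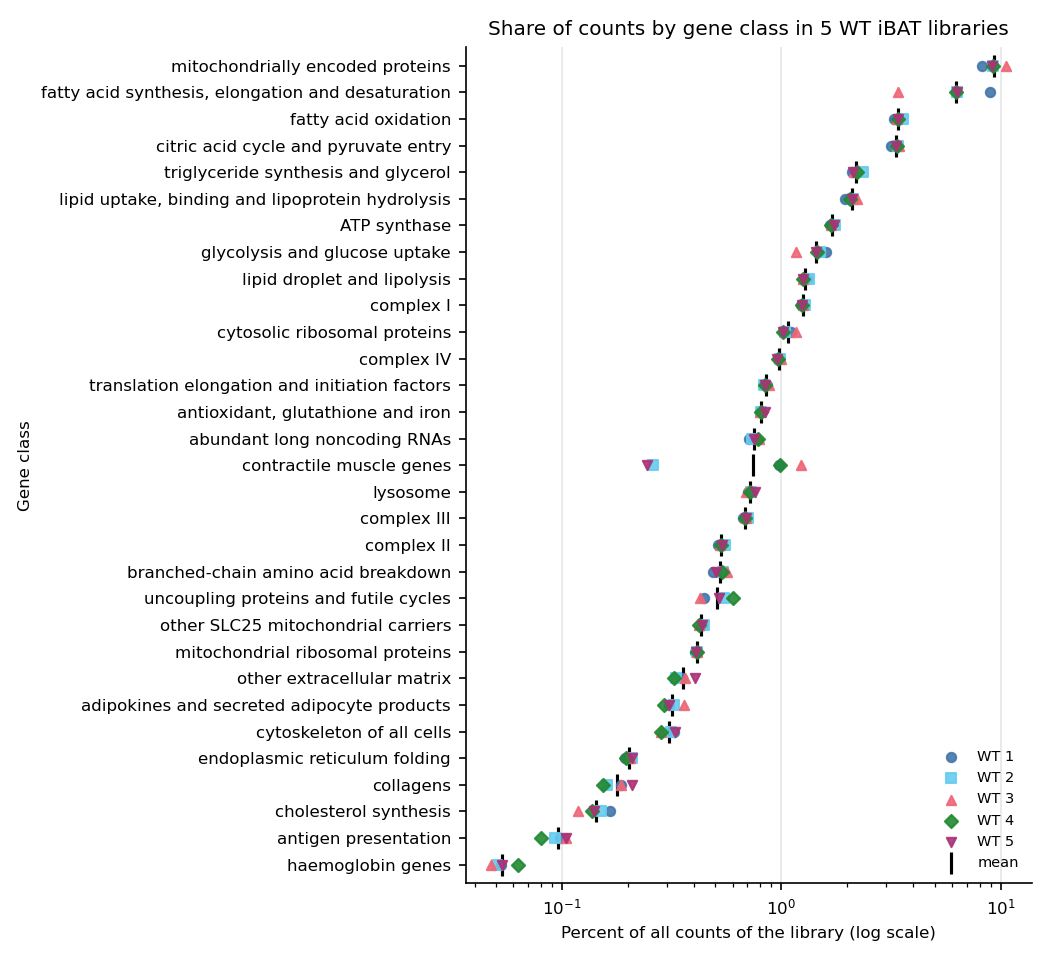
Percent of all counts (log axis) held by each of 31 gene classes that share no gene, with 1 symbol per WT library and a bar for the mean of 5. The 5 symbols of each nuclear respiratory class nearly coincide, contractile muscle genes split into 0.245% to 0.260% in replicates 5 and 2 against 0.979% to 1.23% in the other three, and fatty acid synthesis ranges from 3.40% in replicate 3 to 8.97% in replicate 1.

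The label of brown fat was checked against its markers. All 27 brown adipocyte markers exceeded 1 CPM, and their summed level was 13452, 15580.3, 14653, 16226 and 15651 CPM, 1.51% ± 0.109 (SD, n = 5) of counts. Ucp1 had 3418, 4677, 3089, 4925 and 4462 CPM and led the list with 27.2% of its sum. Replicates 3 and 1 were the low ones and replicate 4 the highest, 1.59-fold apart. Its per-length level was 5563 ± 947, rank 19 of all genes, and that of Scd1 was 15623 ± 5870.0, rank 8. Cidea, a lipid droplet protein typical of brown fat, had 1749, 1818, 1792, 1642 and 1716 CPM, with all libraries within 1.11-fold. Prdm16, a transcriptional regulator of brown fat identity, was among the steady genes at 34.7, 33.5, 32.1, 34.8 and 34.1 CPM. Ppargc1a, the coactivator of mitochondrial biogenesis, had 61.7, 75.6, 69.2, 80.1 and 57.7 CPM.

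Of the members that cold induces, Ucp1 led the list, while Dio2 and Elovl3 held few counts. Dio2, which activates thyroid hormone, had 39, 69.3, 43.2, 69.2 and 47.5 CPM, with replicates 2 and 4 above the other three. Elovl3, a fatty acid elongase induced strongly by cold, had 32.1, 26.7, 5.85, 33.4 and 26.2 CPM. Replicate 3 stood alone at the bottom, 5.71-fold below replicate 4. Ucp3, a relative of Ucp1 in muscle and brown fat, had 91.5, 89.2, 85.9, 109 and 75.6 CPM. Ucp2 had 18.3, 12, 20.9, 13.3 and 20.3 CPM. Their per-length levels were 63.6 ± 4.86 and 5.50 ± 1.75, far below that of Ucp1. Of 22 brown markers with a mean of at least 100 counts 3 were past 2-fold, Elovl3, Pdk4 and Ppara. Pdk4, which restrains glucose oxidation, had 954, 1054, 2331, 1942 and 1546 CPM. Ppara, the fatty acid sensing receptor, had 181, 319, 419, 353 and 355 CPM. Both were highest in replicate 3 and lowest in replicate 1. Pdk4 and Ppara were picked out after their values were seen.

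Markers of white fat were fewer. Of 16 listed genes, 8 exceeded 1 CPM, and Hoxc9, Tcf21, Wt1 and Serpina3k had 0 counts in all 5 libraries, which allows up to 0.313 to 0.504 CPM per library, for counting error only. The summed level of 1319, 1188, 807, 802 and 1500.3 CPM rested on Npr3 and Lep. Lep, the leptin gene, had 529.7, 462, 219, 232 and 519 CPM, with replicates 1, 2 and 5 high and replicates 3 and 4 low. Npr3, the clearance receptor of natriuretic peptides, had 644, 587, 416, 443 and 839 CPM with the same replicates low. Retn, encoding resistin, had 10.2, 13.3, 18.4, 11.4 and 9.68 CPM with replicate 3 highest. Retn and the 4 genes at 0 were picked out after their values were seen.

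Genes of fatty acid synthesis, elongation and desaturation varied far more than those of fatty acid oxidation. Their shares were 8.97%, 6.31%, 3.40%, 6.28% and 6.33%, a mean of 6.26% ± 1.97 (SD, n = 5), which is 2.42% ± 0.865 per length, against 2.44% ± 0.276 for fatty acid oxidation. Scd1, the desaturase that makes oleate, had 45598, 32832, 17680.0, 33521 and 39728 CPM. Fasn, fatty acid synthase, had 28621, 18729, 8321, 18054 and 13368 CPM. Both were highest in replicate 1 and lowest in replicate 3, 2.58-fold and 3.44-fold apart. Acly, which makes cytosolic acetyl-CoA from citrate, had 3964, 2623, 1418, 2705 and 2081 CPM. Acaca, which makes malonyl-CoA in the cytosol, had 3593, 2421, 1175, 2213 and 1903 CPM. Elovl6, which extends palmitate, had 858, 642, 371, 679 and 548 CPM. Replicates 1 and 3 again marked the extremes of these enzymes.

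Of 20 members with a mean of at least 100 counts, 10 were past 2-fold, and all 10 were lowest in replicate 3 (8 highest in replicate 1). Besides the enzymes above and Elovl3 these were Scd2, a second desaturase, Acss2, which makes acetyl-CoA from acetate, Me1, a source of NADPH, and Fads3. Scd2 had the widest range, at 494, 221, 74.1, 235 and 364 CPM. Without replicate 3, 3 of the 10 remained past 2-fold, though the range of a gene cannot grow when a library is left out. Without replicate 1, 7 genes of the list were past 2-fold, and without replicate 2, 4 or 5, 10 were. The other isoform of acetyl-CoA carboxylase, Acacb, which lies at the mitochondrial surface and restrains fatty acid oxidation, differed 1.12-fold at a mean of 1708 CPM. Genes named here that regulate the pathway ranged from 1.41-fold to 3.39-fold between libraries. The median gene with a mean of at least 100 counts ranged 1.22-fold. Srebf1, encoding SREBP1, had 545, 487, 351, 341 and 389.9 CPM. Mlxipl, encoding the glucose sensor ChREBP, had 203, 161, 139.6, 167 and 160.0 CPM. Thrsp, which promotes lipogenesis, had 1888, 1737, 1429.8, 1663 and 1335 CPM. These genes ranged from 1.41-fold to 1.60-fold. Insig1, which restrains SREBP, ranged 1.77-fold at 550.3, 440.4, 311, 353 and 349.6 CPM. Mid1ip1, which activates acetyl-CoA carboxylase, ranged 3.39-fold at 131, 89.8, 38.7, 54.6 and 60.8 CPM. Both were highest in replicate 1 and lowest in replicate 3. Acaca, Acacb, Elovl6, Scd2, Acss2, Me1, Fads3, Srebf1, Mlxipl, Thrsp and Mid1ip1 were picked out after their values were seen.

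The promoter of Fasn is shown because the genes of this pathway varied together between libraries. It spans 250 bases before to 50 after the start in RefSeq's table of GRCm38.p6, chr11:120824498-120824797 on the minus strand. Capitals mark each CCAAT, the box read by the factor NF-Y, searched on both strands as CCAAT or its reverse complement.
Fasn: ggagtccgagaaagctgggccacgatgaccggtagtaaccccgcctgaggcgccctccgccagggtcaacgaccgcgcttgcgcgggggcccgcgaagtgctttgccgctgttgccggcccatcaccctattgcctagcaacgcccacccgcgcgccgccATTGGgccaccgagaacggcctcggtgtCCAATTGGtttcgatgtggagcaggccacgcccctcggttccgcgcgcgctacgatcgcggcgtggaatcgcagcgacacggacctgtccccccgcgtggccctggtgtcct
It holds 3 matches, at 90, 62 and 59 bases before the start, of which the nearer 2 lie on opposite strands and overlap within CCAATTGG. CCAAT stood in 15 of the 24 promoters of fatty acid synthesis genes in the table (62.5%), in 5 of the 7 whose gene was past 2-fold, and in 41.1% of all 27025 genes of the table. CACGTG, an E-box, stood in 4 of 24 (16.7%) and in 0 of the 7, against 8.09% of all genes and 12.6% of those with a mean of at least 100 counts. The share of CCAAT over the latter was 41.9%. CACGTG cannot overlap with CCAAT. Scd1 and Elovl3 are not shown. The matches describe the sequence and no binding was measured.

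Other lipid and sugar classes followed at lower shares. Genes of triglyceride synthesis and glycerol supply held 2.18% ± 0.0985 (SD, n = 5), lipid uptake and binding 2.09% ± 0.0942 (SD, n = 5), lipid droplets and lipolysis 1.28% ± 0.0397 (SD, n = 5) and glycolysis with glucose uptake 1.43% ± 0.162 (SD, n = 5). Gpd1, which makes glycerol 3-phosphate from glucose carbon, had 9238, 9414, 7222, 8708 and 8048 CPM. Pck1, which makes it from pyruvate and lactate in fat, had 2689.5, 4101, 5710.3, 4496 and 4043 CPM. Replicate 3 was lowest for Gpd1 and highest for Pck1, and replicate 1 was lowest for Pck1. In lipid uptake 4 of 22 tested genes were past 2-fold, in lipid droplets 2 of 17 and in triglyceride synthesis 1 of 14, Pck1. Fabp4 and Cd36, which carry fatty acids, differed 1.11-fold each. Angptl4, an inhibitor of lipoprotein lipase that fasting induces, had 229, 228, 538, 371 and 359.7 CPM, highest in replicate 3. Angptl8 and Fabp5 were also past 2-fold in uptake. G0s2, an inhibitor of lipolysis at the droplet, had 493, 715, 605, 628 and 230.2 CPM, lowest in replicate 5. Pnpla3 was the other droplet gene. The members of the glycolysis list past 2-fold were Hk1 and the muscle forms Pgam2 and Eno3. Eno3 had 91.2, 28.7, 111, 82.3 and 30.3 CPM, low in replicates 2 and 5. The glycolytic genes Aldoa, Pkm and Eno1 were all lowest in replicate 3, Eno1 at 1889, 1662, 1082, 1492 and 1529 CPM. In the sugar branch Slc2a5, the fructose transporter, had 32.4, 18.3, 4.66, 15.8 and 13.4 CPM, with the same library lowest. Angptl4, Fabp5, G0s2, Pnpla3, Slc2a5, Hk1, Pgam2 and Eno3 were picked out after their values were seen.

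Among products that adipocytes are known to lose in obesity, Car3 and Cfd were highest in replicate 3. Car3 had 2643, 3893, 5995, 3724 and 2163 CPM, with replicates 5 and 1 lowest. Cfd, the complement factor adipsin, had 141, 219, 697, 213 and 127 CPM, a 5.50-fold range with replicate 3 alone at the top. Adipoq, encoding adiponectin, had 705, 781, 844, 735 and 696 CPM and stayed within 1.21-fold. Cfd was picked out after its values were seen.

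Among tested genes of cAMP and insulin signalling, Irs2 alone was past 2-fold. Of 16 tested genes of beta-adrenergic receptors and cAMP none was past 2-fold, and of 20 genes of insulin and AKT signalling 1 was. Adrb3, the beta-adrenergic receptor of adipocytes, had 240.1, 238, 273, 284 and 283 CPM. Gnas, which encodes the stimulatory G protein, had 2399, 2853, 3032, 2911 and 3211 CPM, with replicate 1 lowest here and, beside replicate 2, low for Adrb3. Pde3b, which breaks down cAMP on insulin's signal, had 456, 498, 561, 545 and 517 CPM. Insr, the insulin receptor, had 179, 186, 220.1, 198 and 193 CPM. Among the insulin genes, Mtor, a growth kinase, was the steadiest of those named, at 310.3, 308, 286, 309 and 306 CPM. Foxo1, a transcription factor that insulin inhibits, had 37.8, 48.4, 64.4, 64 and 69.8 CPM, replicate 1 being lowest, 1.85-fold below replicate 5. That range exceeded the percentile 95 of genes with a mean of at least 100 counts, which was 1.69-fold. The insulin gene past 2-fold, Irs2, an adaptor of the insulin receptor, had 18.9, 21, 50.3, 32.8 and 16.1 CPM and was picked out after its values were seen.

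Axl itself, the receptor that the series targets, was measured in every WT library. It had 51.5, 37.7, 42.6, 37.6 and 46.3 CPM, and replicates 2 and 4 were the lowest. Its ligand Gas6 had 51.7, 49.3, 44.9, 38.3 and 59.5 CPM, with replicate 4 lowest. Pros1, a ligand of the related receptors, had 21.6, 20.8, 19.9, 14.8 and 25.3 CPM, again with replicate 4 lowest. Of those receptors, Mertk had 12, 10.1, 11.9, 11.3 and 13.4 CPM. Tyro3 had 0.537, 0.835, 0.956, 0.336 and 0.774 CPM. The per-length level was 19.4 ± 4.65 for Axl, 6.08 ± 1.18 for Mertk and 0.253 ± 0.0998 for Tyro3, which is near the floor of counting.

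Marker lists of other cell types had smaller sums than the brown and the general adipocyte lists. Per length, the endothelial list held 0.0800% and the brown adipocyte list 2.42%. The lists differ in size and in their leading genes, so these sums do not measure shares of cells. The 20 endothelial markers, all above 1 CPM, summed to 1440.2, 1405, 1454, 1423 and 1830.4 CPM, with replicate 5 apart from the other four. Kdr, the VEGF receptor of endothelium, had 148, 136, 135, 143 and 183 CPM, also highest in replicate 5. The 18 markers of progenitors and fibroblasts summed to 1867, 1674, 2169.5, 1683 and 1902 CPM, of which Gsn, also made by other cells, held 52.6%. Markers of pericytes and smooth muscle summed to 1050.1, 929, 1077, 1026 and 1072 CPM. Sparc, a matrix protein of stroma and vessels, had 734, 758, 661, 706 and 962 CPM and was highest in replicate 5.

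Immune markers were low. The 20 macrophage markers summed to 276, 223, 256, 204 and 318 CPM, with Lyz2 at 53.2, 43.5, 51.8, 40.8 and 68.7 CPM. Trem2, a marker of lipid-associated macrophages, averaged 0.673 CPM, and Clec4f, a marker of liver macrophages, had 0 counts, both picked out after their values were seen. No marker of 19 for T and NK cells averaged 1 CPM, and their sum was 5.11, 4.80, 4.66, 1.68 and 3.87 CPM. B and plasma cell markers summed to 58.6, 43, 20.4, 28.2 and 81.4 CPM, of which Ighm, the heavy chain of IgM, held 84.2%. Ighm had 49, 34.6, 14.1, 23 and 74.5 CPM, with replicate 5 highest and replicate 3 lowest. Of the mast cell list, 81.0% was Kit, at 66.6, 38.8, 22.7, 29.9 and 26.7 CPM, while Cpa3, a mast cell protease, averaged 2.25 CPM. Cell cycle markers summed to 17.6, 17.6, 19, 17.1 and 32.1 CPM, with replicate 5 apart.

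**Figure D3:**
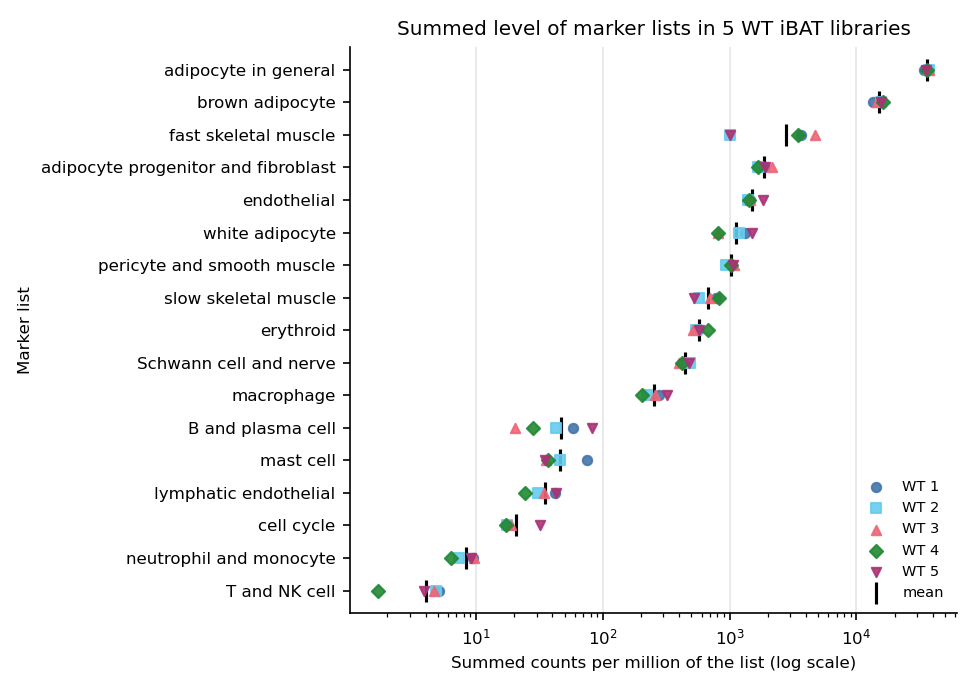
Summed CPM (log axis) of 17 marker lists, with 1 symbol per WT library and a bar for the mean of 5. The general and the brown adipocyte lists lead, the fast muscle list spans 1006 to 4731 CPM, and T and NK cell markers lie at the bottom between 1.68 and 5.11 CPM.

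Genes of skeletal muscle gave the widest list. The 40 contractile genes summed to 9792, 2604, 12323, 9889.9 and 2451 CPM, or 0.979%, 0.260%, 1.23%, 0.989% and 0.245% of counts, a 5.03-fold range. All 33 members with a mean of at least 100 counts were past 2-fold, and in all 33 replicates 2 and 5 were the lowest. The remaining 7 members had fewer counts. Myh4, the myosin of the fastest fibres, had 977, 258, 1305, 987 and 252 CPM. Acta1, skeletal actin, had 574, 138, 679, 532 and 143 CPM. Ckm, muscle creatine kinase, had 356, 81.1, 442, 311 and 83.9 CPM. In each, replicates 1, 3 and 4 did not overlap with replicates 2 and 5, a split read from these same values. Replicates 2 and 5 were both lowest in 69 of the 215 genes past 2-fold, these 33 included. The same held for 5 of 81 nuclear genes of oxidative phosphorylation. The share over all 7941 genes is not given here.

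The share of the fastest myosin hardly differed where the amount of muscle RNA did. Myh4 made up 64.7% to 69.2% of the counts of the 4 myosins Myh4, Myh1, Myh2 and Myh7 in each library. Of the 31-base words of Myh4, 30.4% occurred also in other genes, most in Myh1, so the split among myosins is uncertain. The median contractile gene past 2-fold ranged 5.19-fold. Myh7, the slow myosin, ranged 8.26-fold at 131, 24.6, 88.6, 135 and 16.4 CPM. Myl2, a slow light chain, ranged 12.9-fold at 45, 7.20, 26.6, 43.8 and 3.48 CPM. Unlike the fast genes, both were lower in replicate 3 than in replicates 1 and 4. The slow list as a whole, at 783, 572, 702, 821 and 526 CPM, ranged less, and Atp2a2, a calcium pump that brown adipocytes also express, held 68% of it. Atp2a1, its counterpart of fast muscle, had 325, 92.3, 445, 325 and 90.6 CPM and was low in replicates 2 and 5. Ckm was picked out after its values were seen. No label records how much muscle adjoined a depot, and how muscle came to differ between the libraries was not tested.

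Promoters of 3 contractile genes, each with a marked box, are shown from the same table and build. Capitals mark the CArG box of serum response factor, the MEF2 box and TATAAA, each on both strands. Promoters of the muscle genes Tnnc2, Mylpf and Ckm, searched in the same way, held no match.
Acta1 (chr8:123894726-123895025, minus strand): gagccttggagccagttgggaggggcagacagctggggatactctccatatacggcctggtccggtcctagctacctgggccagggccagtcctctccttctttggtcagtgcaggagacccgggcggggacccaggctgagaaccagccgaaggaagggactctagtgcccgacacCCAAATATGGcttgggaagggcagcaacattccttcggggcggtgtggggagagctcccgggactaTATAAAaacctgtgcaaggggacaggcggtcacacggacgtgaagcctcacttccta
Myh4 (chr11:67237562-67237861, plus strand): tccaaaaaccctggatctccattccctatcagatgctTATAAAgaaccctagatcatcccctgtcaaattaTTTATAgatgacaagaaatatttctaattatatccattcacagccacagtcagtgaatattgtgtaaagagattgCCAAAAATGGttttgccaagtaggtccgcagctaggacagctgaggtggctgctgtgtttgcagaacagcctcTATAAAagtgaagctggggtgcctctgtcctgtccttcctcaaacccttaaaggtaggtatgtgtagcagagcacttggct
Ttn (chr2:76982498-76982797, minus strand): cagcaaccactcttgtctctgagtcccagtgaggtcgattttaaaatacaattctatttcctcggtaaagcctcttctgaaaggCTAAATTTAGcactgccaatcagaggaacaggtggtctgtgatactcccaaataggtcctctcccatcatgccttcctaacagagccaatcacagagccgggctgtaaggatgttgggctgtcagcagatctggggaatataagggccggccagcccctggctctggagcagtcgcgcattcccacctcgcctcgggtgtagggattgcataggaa
The CArG box lies 73 bases before the start in Acta1 and 104 bases before it in Myh4, and the MEF2 box of Ttn lies 166 bases before it. Of 32 contractile genes in the table, 5 (Acta1, Actc1, Ldb3, Myh4 and Myl3) held a CArG box (15.6%) against 1.81% of all genes, 2 (Ttn and Xirp2) held a MEF2 box (6.25%) against 0.636%, and 10 held TATAAA (31.3%) against 15.7%. Of the 26 past 2-fold, 3 held a CArG box (11.5%), 2 a MEF2 box (7.69%) and 7 TATAAA (26.9%). The CArG and MEF2 boxes are rich in A and T, so a match can overlap one of TATAAA. As above, this is a description of letters in a window of 300 bases.

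**Figure D4:**
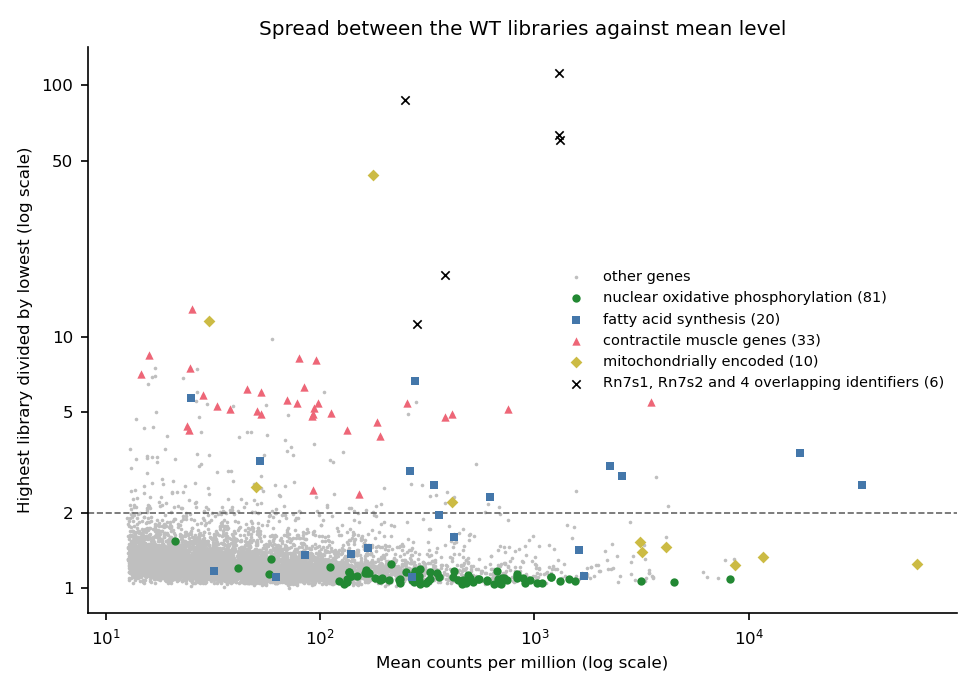
Mean CPM against the highest library divided by the lowest (both axes log) for genes with a mean of at least 100 counts, with the dashed line at 2-fold. All 33 contractile genes lie above the line, 10 of 20 fatty acid synthesis genes do, and all 81 nuclear genes of oxidative phosphorylation lie below it.

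**Figure D5:**
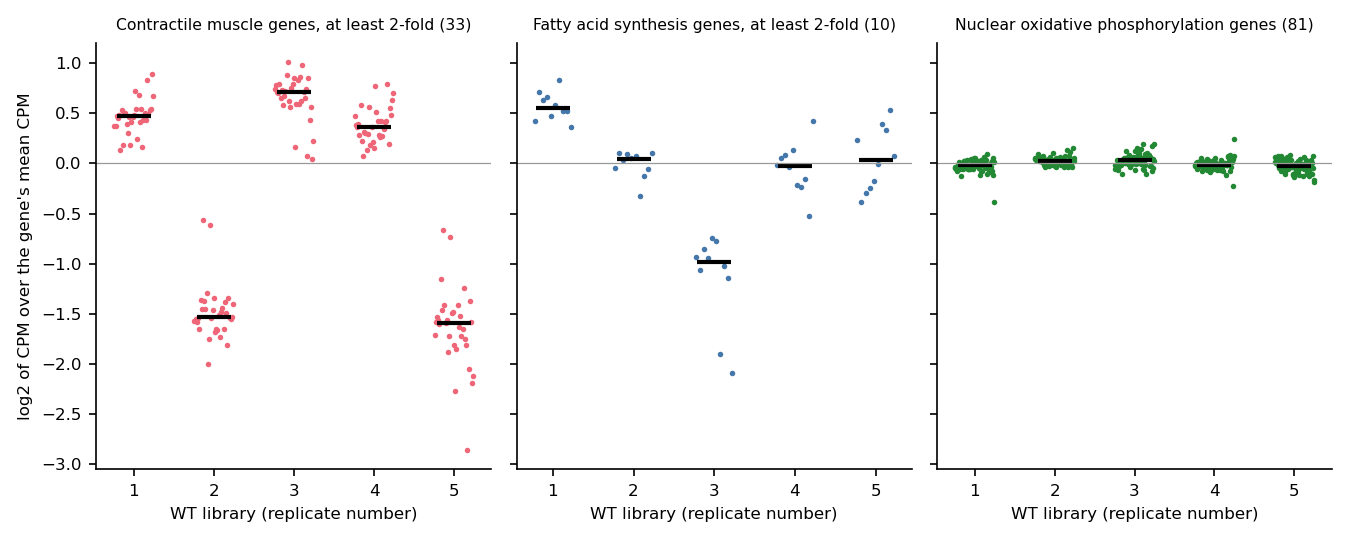
log2 of each gene's CPM over its mean CPM in each WT library (1 point per gene, black bar for the median of the genes), for contractile and fatty acid synthesis genes past 2-fold and for nuclear genes of oxidative phosphorylation. The contractile medians are -1.53 and -1.60 in replicates 2 and 5, the fatty acid synthesis median is -0.99 in replicate 3, and the respiratory medians stay between -0.03 and 0.03. The fatty acid synthesis genes are the 10 of 20 with the wider range, whereas the respiratory genes were not selected by range. The sizes of their medians are therefore not comparable.

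The 215 genes past 2-fold were spread over many orders of the libraries, and the most frequent ones are described. Replicate 3 was the highest library for 104 and the lowest for 59 of them. Replicates 1, 3 and 4 were the 3 highest for 69 genes, among them the 33 contractile ones. Replicates 1, 2 and 5 were the 3 highest for 43 genes, among them Lep, Npr3 and Angptl8, which encodes an insulin-induced inhibitor of lipoprotein lipase. Angptl8 had 70.1, 80.1, 19.2, 23 and 34.7 CPM. Replicates 3, 4 and 5 were the 3 highest for 28 genes, among them Pdk4, Ppara and Cyp2b10, a cytochrome P450 that drugs induce in liver. Cyp2b10 had 14.4, 25.5, 141, 74.4 and 40.7 CPM, from replicate 1 as the lowest to replicate 3 as the highest. Angptl8 and Cyp2b10 were picked out after their values were seen. Less frequent orders are not described, such as replicates 2, 3 and 4 highest for 24 genes and replicates 1, 2 and 4 for 20. Without replicate 3, 128 genes (1.63%) were past 2-fold, 127 of them among the 215. The range of a gene cannot grow when a library is left out, and leaving out another library gave 161 to 209 genes.

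Some clock genes differed between libraries and others did not. Of 14 tested genes of the circadian list 3 were past 2-fold, Bhlhe40, Per1 and Dbp. Per1, a core repressor of the clock, had 13.8, 21.3, 36.3, 31.8 and 27.1 CPM, with replicates 3 and 4 highest. Dbp, a clock output gene, had 25.7, 22.3, 11.7, 11.8 and 24 CPM, with the same libraries lowest. Bhlhe40, a further clock repressor, had 141, 225, 37.5, 38.1 and 79.8 CPM, with replicates 3 and 4 again lowest. Clock, in contrast, had 118, 129, 157, 151 and 149.6 CPM and stayed within 1.33-fold. Of 8 tested immediate early genes 3 were past 2-fold, among them Dusp1, a phosphatase that stress induces, at 70.7, 81.2, 29.3, 54.6 and 29 CPM. Hours of dissection are not given in the sources used here, so their part was not tested. Bhlhe40, Per1 and Dbp were picked out after their values were seen.

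Lists of general cell functions and smaller cell populations remain. Cytosolic ribosomal proteins held 1.07% ± 0.0634 (SD, n = 5) of counts with none of 81 past 2-fold, lysosomal genes 0.719% ± 0.0251 (SD, n = 5) with none of 27 and genes of protein folding in the endoplasmic reticulum 0.202% ± 0.00738 (SD, n = 5) with none of 20. Interferon response genes had none of 8 past 2-fold, at a sum of 315, 290.0, 315, 265 and 347 CPM. Replicate 5 was highest for this sum. The integrated stress response had 1 of 10, at 752, 843, 925, 837 and 804 CPM, with replicate 3 highest. Cholesterol synthesis had 2 of 16, Cyp51 and Sc5d, and was lowest in replicate 3, at 1657, 1501, 1185, 1369 and 1397 CPM. Markers of Schwann cells and nerve summed to 440.3, 485, 398, 420.0 and 475 CPM, of which S100b, which adipocytes also make, held 62.1%. Erythroid markers, mostly haemoglobin, summed to 567, 541, 514, 675 and 569 CPM.

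At the other end were genes whose levels hardly differed between the libraries. Zfp423, a transcription factor of adipocyte commitment and of white fat identity, had 25.1, 24.6, 25.2, 24.9 and 25 CPM. Tbc1d17, a regulator of vesicle traffic, had 35.2, 35.4, 35.5, 35.6 and 35.7 CPM. Each lay within 1.02-fold, and the counting error of a single library is a coefficient of variation of 7.16% for Zfp423 and 6.00% for Tbc1d17. Counting error alone would usually give a wider range. Such narrow ranges, picked from all genes, therefore do not show that these genes are steadier than others. The 10 genes with the smallest estimated spread, among them Polr3b, Dhx37 and Ints11, averaged between 17 and 35.5 CPM. The biological coefficient of variation, edgeR's estimate of the spread between mice beyond counting error, was 10.6% for the median gene. It is drawn towards the common value and so understates the spread of the most variable genes. For steady abundant genes it is too large. Atp5a1 had an estimate of 13.2% at a coefficient of variation of 2.13% between the libraries.

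Noncoding RNAs took a visible part of the depot's counts, and some were counted more than once. RNAs without a poly(A) tail held 1.50% ± 0.168 (SD, n = 5) of counts and 10.4% ± 0.462 per length. Rn7sk, which holds back transcription elongation, had 7966, 7827, 8792, 6814 and 7211 CPM and was second of all genes per length. Malat1, a nuclear long noncoding RNA, had 5643, 5902, 6571, 6362 and 6042 CPM. Rpph1, the RNA of RNase P (GRCm38, chr14:50807449-50807767), had 27499, 30916, 29990, 19528 and 25908 counts, and Ccnb1ip1, which shares 284 bases with it, had 27499, 30912, 29988, 19528 and 25908. Reads on shared bases thus entered both genes, and the level of Ccnb1ip1 cannot be told from that of Rpph1. Ccnb1ip1 was picked out after its values were seen.

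Rn7s2, a 7SL RNA of the signal recognition particle, its copy Rn7s1 and 4 identifiers that overlap them differed widely between libraries. Rn7s2 had 149, 878, 209, 5271 and 86.7 CPM. Rn7s1 had 155, 1249, 336, 70.9 and 90.1 CPM. Their sum was 304, 2128, 545, 5342 and 177 CPM. Gm47299 and Gm47305 overlap Rn7s2, followed its order and ranged 63.4-fold and 112-fold, while Gm47287 and Gm47295 overlap Rn7s1 and ranged 11.3-fold and 87.4-fold. All 31-base words of Rn7s1 and Rn7s2 occurred in other genes, so the split between the copies is uncertain. The sum was high in replicates 4 and 2, whereas contractile genes were low in replicates 2 and 5 and fatty acid synthesis in replicate 3.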

How the data were processed

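Total RNA was taken from snap-frozen iBAT of male mice, with separate mice per the labels. The labels give poly(A) RNA and a TruSeq kit, whereas the study's methods give ribosomal RNA depletion, so both are stated. The submitters' processing notes list bcl2fastq, Trimmomatic 0.36, STAR 2.6.1c, DESeq2 and GRCm38.p5. The methods name Trim Galore and hisat2 with GRCm38 instead. The values are read counts per gene as deposited by the authors, with no normalization, and the counting tool and strand setting are not given in the sources used here. Reads of overlapping or antisense genes therefore cannot be told apart.

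Of 41249 Ensembl identifiers, 41163 had a symbol in GENCODE vM21, which also gave merged exon lengths and coordinates. CPM are relative to the file total. Spread was computed on genes with a mean of at least 100 counts, and edgeR 4.0.16 in R 4.3.3 estimated dispersion over the 5 WT libraries without scaling factors. There was 1 group, so no test between groups was run, and single libraries that stood apart were sought with Dixon's criterion. The 95% Wilson intervals of the shares spanned at most 0.0465 percentage points, and these and the floors of 3 counts cover counting error only. The dispersion step was checked on simulated counts.

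Members and lists were chosen with earlier results of these data known. Genes were named by rule: the 20 highest by CPM, the 10 highest per length, the 3 highest of each list, the 10 with the largest and the 10 with the smallest spread, and fixed names. Values of every such gene are not all printed, and some genes are not reported here. Motifs were searched in RefSeq promoters of GRCm38.p6. Alternatives were TMM and DESeq2 1.42.0 scaling, other denominators, other filters and leaving out each library. Python 3.11.15 with pandas 2.3.3 was used.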

Additional observations from a re-analysis of the deposited data

Results flagged for a closer look

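In 4 of 57 gene lists and 12 of 102 genes with values in the text, 1 WT library stood far from the other four: its gap to the nearest other library, as a share of the whole range of the 5, exceeded 0.71, Dixon's critical value for 5 samples. Chance flags about 1 in 20 groups, and genes of a list share libraries, so the numbers of lists and genes are not independent. Some of these genes were named for their wide spread or picked out after their values were seen, so their number is not to be read against the rate that chance gives.

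Replicate 5 was the high one for the endothelial list, with a gap of 0.885 of the range and 1830.4 CPM against 1405 to 1454 CPM, and for its member Kdr, with a gap of 0.724. The same library was the high one for cell cycle markers, with a gap of 0.876 and 32.1 CPM against 17.1 to 19 CPM. Replicate 1 was the high one for mast cell markers, with a gap of 0.712, which rest on Kit. It was the low one for the list of beta-adrenergic receptors and cAMP, with a gap of 0.747 and 6019 CPM against 6861 to 7145 CPM.

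Replicate 3 was the low one for Elovl3 with a gap of 0.738, for the glycolytic gene Pkm with 0.763 and for the kinase gene Mtor with 0.838, although Mtor differed only 1.09-fold. It was the high one for Cfd with a gap of 0.837.

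Among RNAs with shared sequence, replicate 4 was the high one for Rn7s2 with a gap of 0.847, Gm47299 with 0.859, Gm47305 with 0.852 and mt-Nd3 with 0.787. Replicate 2 was the high one for Rn7s1 with 0.775 and for mt-Co3 with 0.744. For mt-Nd4l the gap of 1 is the single count in replicate 5.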

How the results depend on the processing

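No paired analysis was possible because 1 group only was described, so the replicate numbers had no partner. Shares and counts of a single group have no direction that an alternative could reverse. Scaling by TMM or DESeq2 size factors moved none of 29 values beyond the spread between libraries. The factors lay between 0.979 and 1.03 and could hardly move a mean that far, so this check is weak. With these scalings 2.62% (TMM) and 2.68% (DESeq2) of genes were past 2-fold. Whether the order of libraries changed was not tested. Leaving out 1 library at a time gave 1.63% to 2.64% of genes past 2-fold, against 2.71% with all 5, and the lowest value is the one without replicate 3. The range of a gene over fewer libraries cannot exceed that over all 5, so a fall by itself says little. The share was 2.30% without the contractile genes, an alternative chosen after seeing the data, and 46.8% with no filter on low counts.

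Shares of counts depended on the denominator. On nuclear genes only, fatty acid oxidation held 3.74% and nuclear oxidative phosphorylation 5.67%, and on protein-coding genes only 3.56% and 5.37%. Per kilobase of merged exons these shares were 2.44% and 6.80%, fatty acid synthesis held 2.42% and mitochondrially encoded genes 15.1%, and 59.6 genes on average were enough for 50% of the sum, against 319 in counts. The median biological coefficient of variation was 13.6% with no filter on low counts and 12.9% as DESeq2 dispersion, against 10.6%. Removing identifiers that carry counts of an overlapping RNA, also chosen after seeing the data, moved none of 32 values beyond the spread.

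Precision is limited by 5 mice of 1 state. Genes below about 0.313 to 0.504 CPM in a library rest on 3 counts or fewer. Genes with near-identical copies have uncertain levels whatever the depth.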
